A study of Mus musculus with 10 samples.

Results

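The cell cycle and proliferation genes are 40 genes of the cyclins, their kinases, DNA replication, mitosis and cell cycle transcription, a list of symbols whose rule uses no measured value. The list was nevertheless chosen with earlier results of these data known. All 40 were found among the 15075 genes measured in interscapular brown adipose tissue (iBAT). iBAT was taken at 20 weeks of age from 5 Control and 5 AdCKO C57BL/6 mice kept at room temperature, with 1 polyadenylated RNA library per mouse. Both groups carry a floxed Crls1 allele, in which exon 4 lies between loxP sites. Crls1 encodes cardiolipin synthase, which makes the phospholipid cardiolipin in the inner mitochondrial membrane. AdCKO mice also carry Adipoq-Cre, whose promoter is active in adipocytes, so that blood vessel, immune and progenitor cells of the depot keep the gene. Control mice have no Cre and are labelled wild type.

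A cell that divides first passes from G1 into S phase. D cyclins bind Cdk4 and Cdk6 and phosphorylate the retinoblastoma protein, which frees E2F transcription factors, and cyclin E with Cdk2 completes the step. E2F factors then drive genes of DNA replication, while cyclins A and B with Cdk1, and genes driven by Foxm1 and the B-Myb-MuvB complex, carry the cell through G2 and mitosis. Mature brown adipocytes seldom divide, whereas progenitors, endothelial cells and immune cells of the depot can. In RNA from whole tissue, fewer or more cells of a type and less or more RNA per cell cannot be told apart.

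The deposited unit is taken here as the DESeq2-normalized read number divided by the counted exon length in kb. It is given below as mean ± SD with n = 5 mice per group. Some low genes varied less than counting so few reads would give. Control Bub1 ran only from 1.17 to 1.43, with 5.07 normalized reads in the lowest library. How low values were formed is unknown, so their SD, SE and p may understate the spread between mice. Groups were compared with limma on log2(value + 1), and a gene was called at a Benjamini-Hochberg adjusted p under 0.01. A fold change on this scale understates the change of low genes. Crls1 itself lay between 813 and 1291 in the Control libraries and between 193 and 249 in the AdCKO libraries, with no overlap, and its level in AdCKO was 20.5% of that in Control (limma log2 fold change -2.27, SE 0.13, adjusted p = 1.18e-07). Summed over genes, normalized reads totalled 7615403 to 8171138 per library in Control but 5419800 to 5843024 in AdCKO, and the depth before normalization is unknown. Brown adipocyte markers were present in every library, with Ucp1 at 36912 ± 8713 in Control and 14069 ± 4478 in AdCKO. Of 8 skeletal muscle markers, the summed level was between 87.1 and 115 in Control and 133 and 120 in AdCKO replicates 3 and 5, but 5434, 20355 and 7756 in AdCKO replicates 1, 2 and 4.

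Most cell cycle genes had more RNA in AdCKO iBAT. Over all 15075 genes, 32 of the 40 were called higher in AdCKO, 1 was called lower (Ccnd3), and 7 were not called. The 32 rose between 1.28-fold (Cdc6) and 5.08-fold (Mki67), with a median of 2.38-fold, and 23 of them rose at least 2-fold. Of all genes, 24.7% were called higher and 21.6% lower by the same rule. The lowest AdCKO library exceeded the highest Control library for 31 of the 40, against 24.6% of all genes. Ccnd3 alone had its highest AdCKO library under its lowest Control library, as 20.8% of all genes did. The other 8 genes overlapped between groups, among them Cdc6, which was called higher. The median log2 fold change was 0.99 for the 40 genes and 0.03 for all genes.

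Many of the genes were expressed at low levels, and Ccnd3, Cdk4, Pcna and Cdk2 were the most abundant of the 40 in Control. Of the 40, 30 had a mean of at least 10 in at least 1 group: 15 in both groups, 15 in AdCKO alone and 0 in Control alone. Just above 10 in AdCKO lay Cdk1 at 10.1 and Foxm1 at 11.3, and just below lay Aurkb at 9.93, Bub1b at 9.50 and Plk1 at 9.14. Cdk6, Ccne2, Ccnb1, Cdc6, Bub1, Cenpe and Kif11 also stayed below 10 in both groups. In the test of the 11244 genes that reached 10, 24 of the 30 were called higher and 1 lower, where 25.6% of all tested genes were higher and 28% lower. Since 15 of the 30 entered through AdCKO alone, this count is a description and carries no weight of its own. Every adjusted p and SE given for a gene below therefore comes from the test of all 15075 genes, with no minimum level.

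**Figure D1:**
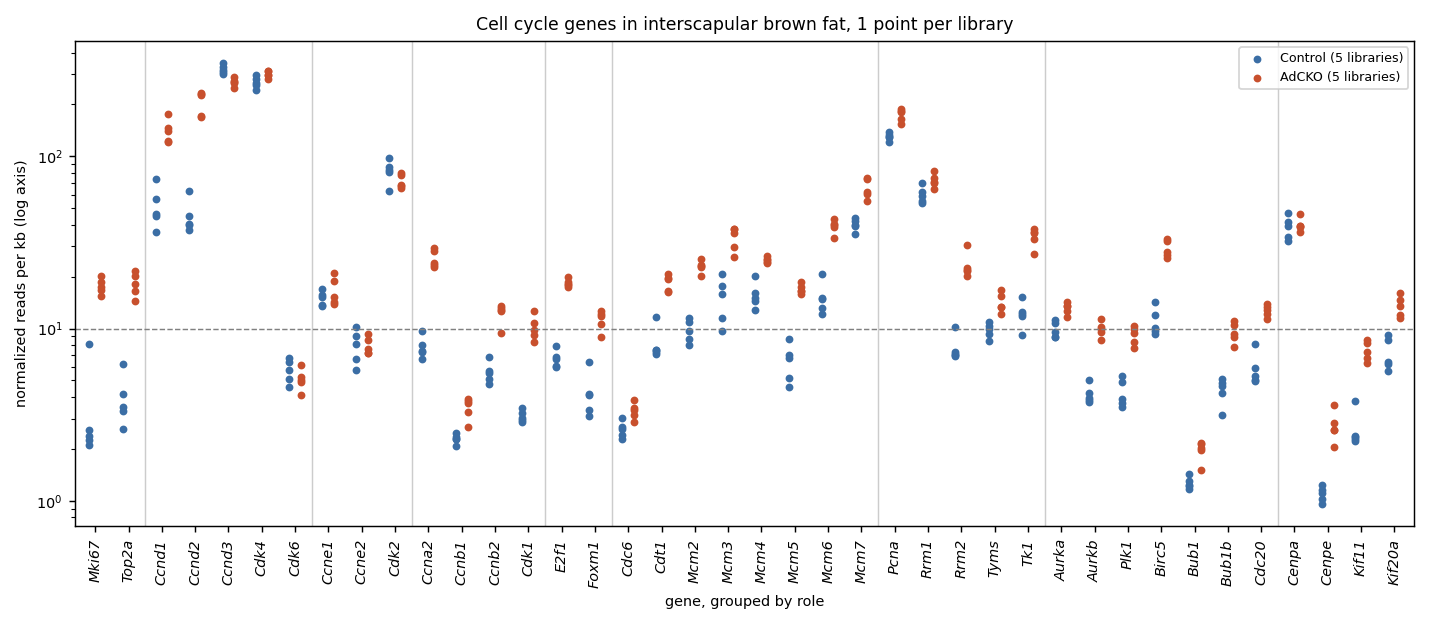
Normalized reads per kb (log axis) of the 40 genes in each of the 5 Control (blue) and 5 AdCKO (red) libraries, grouped by role, with vertical lines between roles and a dashed line at 10. The AdCKO points lie above all Control points for 31 genes and below them for Ccnd3, and overlap for 8.

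The pair of genes most used as markers of dividing cells showed the largest and the third largest log2 fold changes of the 40. Mki67 encodes Ki-67, which coats mitotic chromosomes and is lost in resting cells. The gene spans chr7:142881471-142908062 of mm9 on the minus strand. Its Control values were 2.10, 2.39, 8.14, 2.57 and 2.25, and its AdCKO values were 16.8, 15.5, 18.5, 17.5 and 20.3. The groups did not overlap, and Control replicate 3 stood apart from the other Control libraries. Mki67 thus rose from 3.49 ± 2.61 to 17.7 ± 1.79 (limma log2 fold change 2.20, SE 0.26, adjusted p = 2.38e-05). Top2a (chr11:98854261-98885503, minus strand), the topoisomerase that untangles replicated chromosomes, was at 2.59, 3.33, 6.22, 4.14 and 3.50 in Control and at 18.02, 14.4, 20.1, 21.5 and 16.6 in AdCKO. It rose from 3.96 ± 1.38 to 18.1 ± 2.80 (limma log2 fold change 1.98, SE 0.17, adjusted p = 2.50e-06), and Control replicate 3 was again the highest Control library.

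D cyclins, which link growth signals to the cell cycle, moved in different directions. Ccnd2 (chr6:127075727-127101066, minus strand) was at 37.4, 45.2, 63.1, 39.7 and 40.5 in Control and at 227, 234, 171, 229 and 168 in AdCKO. It rose 4.56-fold, from 45.2 ± 10.4 to 206 ± 33.4 (limma log2 fold change 2.17, SE 0.15, adjusted p = 4.83e-07). Ccnd1 (chr7:152115836-152125830, minus strand) was at 36.3, 44.9, 46.4, 73.7 and 56.7 in Control and at 146, 121, 177, 122 and 141 in AdCKO. It rose 2.74-fold, from 51.6 ± 14.3 to 141 ± 22.6 (limma log2 fold change 1.46, SE 0.17, adjusted p = 2.25e-05). In both genes the lowest AdCKO library exceeded the highest Control library.

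Ccnd3 (chr17:47642000-47736637, plus strand), the most abundant D cyclin per kb in Control iBAT, was at 299, 349, 310, 331 and 315 in Control and at 265, 269, 272, 248 and 289 in AdCKO. The groups did not overlap but lay close together, and Ccnd3 fell from 321 ± 19.5 to 269 ± 14.5 (limma log2 fold change -0.26, SE 0.06, adjusted p = 0.00271). This direction depends on scaling: with every library set to the same total, Ccnd3 was higher in AdCKO (0.22, adjusted p = 0.00251), below the median of all genes on that scale, 0.43. The call for Ccnd3 was also lost with quantile normalization (-0.11, adjusted p = 0.104), with the replicate number as a block (0.0123), without the muscle-rich AdCKO replicates 1, 2 and 4 (0.0853), and without AdCKO replicate 1 and Control replicate 3 (0.0112). Per kb, the 3 D cyclins summed to 418 ± 28.3 in Control and 616 ± 17.2 in AdCKO. Ccnd3 made up 76.9% ± 2.87 of that sum in Control and 43.6% ± 2.81 in AdCKO, while Ccnd2 went from 10.8% ± 2.41 to 33.4% ± 5.17 and Ccnd1 from 12.3% ± 2.86 to 22.9% ± 3.56. Multiplying a library by a constant leaves these shares as they are.

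Partner kinases of the D cyclins did not pass the test. Cdk4 was at 258, 280, 243, 297 and 268 in Control and at 283, 297, 314, 314 and 298 in AdCKO, with overlapping groups (269 ± 20.5 against 301 ± 13.1, limma log2 fold change 0.16, SE 0.06, adjusted p = 0.0381). It passed with equal totals (0.64, adjusted p = 2.40e-06) and with quantile normalization (0.30, adjusted p = 6.76e-04). Cdk6 had a low level in both groups, 5.71 ± 0.890 and 5.08 ± 0.735 (adjusted p = 0.296 in limma).

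Cdkn1a, which encodes the inhibitor p21 and is not one of the 40, was given beside the D cyclins because p21 binds the same kinases and also Cdk2. It was at 146, 104, 89.4, 134 and 117 in Control and at 374, 418, 382, 425 and 336 in AdCKO, with no overlap. Its level rose 3.28-fold, from 118 ± 22.8 to 387 ± 36.2 (limma log2 fold change 1.72, SE 0.12, adjusted p = 6.37e-07). RNA of p21, Ccnd1 and Ccnd2 was higher in each of the 5 AdCKO libraries than in any Control library.

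**Figure D2:**
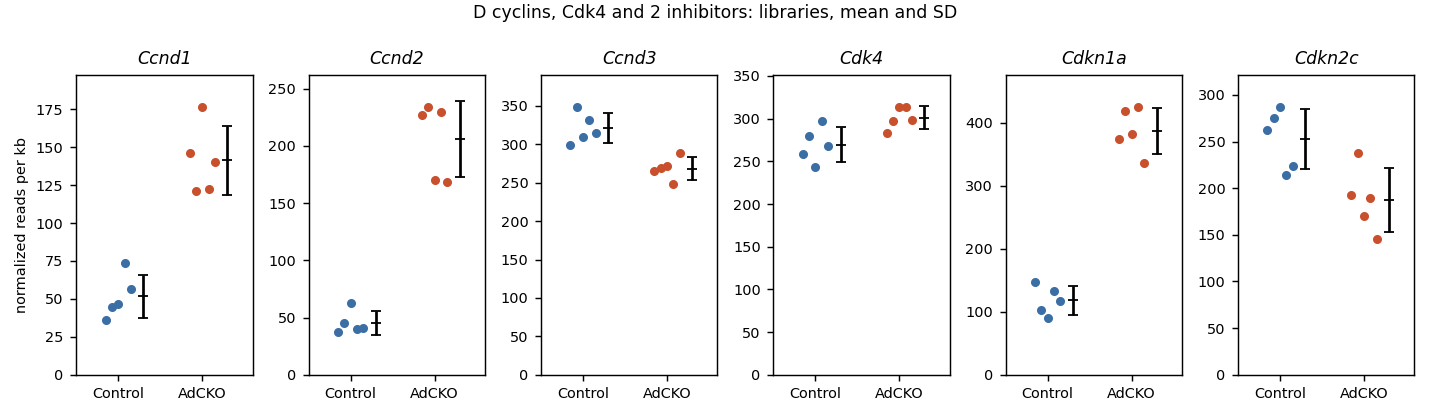
Normalized reads per kb (linear axes from 0) of Ccnd1, Ccnd2, Ccnd3, Cdk4 and the inhibitors Cdkn1a (p21) and Cdkn2c (p18) in each Control (blue) and AdCKO (red) library, with black bars for the mean and SD of 5 mice. Ccnd1, Ccnd2 and Cdkn1a lie higher in AdCKO without overlap, Ccnd3 lies lower, and Cdk4 and Cdkn2c overlap.

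Cyclin E and Cdk2, which act at the entry into S phase, were the role group with no call: 0 of the 3 passed in either fit of limma, and 0 had an unadjusted p under 0.05 over all genes. Ccne1 was at 15.01 ± 1.47 and 16.7 ± 3.12 (log2 fold change 0.13, adjusted p = 0.398), Ccne2 at 7.95 ± 1.78 and 7.99 ± 0.904 (0.03, adjusted p = 0.886), and Cdk2 at 82.4 ± 12.9 and 71.7 ± 6.64 (-0.19, adjusted p = 0.168). With equal totals, Ccne1 (0.58, adjusted p = 0.00124) and Ccne2 (0.45, adjusted p = 0.00895) passed as higher, close to the shift of all genes, 0.43. These p-values do not show that the 3 genes were unchanged.

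Both transcription factors among the 40 rose. E2f1 (chr2:154385136-154395628, minus strand), which activates genes of S phase, was at 5.98, 6.07, 7.93, 6.87 and 6.63 in Control and at 17.9, 18.1, 18.5, 20.0 and 17.4 in AdCKO. It rose 2.75-fold, from 6.70 ± 0.787 to 18.4 ± 0.986 (limma log2 fold change 1.34, SE 0.09, adjusted p = 3.55e-07). Foxm1, which activates genes of G2 and mitosis, rose 2.66-fold, from 4.23 ± 1.30 to 11.3 ± 1.49 (limma log2 fold change 1.25, adjusted p = 3.05e-05). An exon of Foxm1 overlaps an exon of another annotated gene on the same strand (4933413G19Rik), so its value is uncertain.

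All 8 replication licensing genes were called higher in AdCKO over all genes, where 24.7% of all genes were. Licensing loads the MCM helicase, a ring of the 6 proteins Mcm2 to Mcm7, onto replication origins, with Cdc6 and Cdt1 as loaders. Mcm6, with the largest log2 fold change of the group, was at 14.9, 13.2, 20.8, 12.1 and 15.03 in Control and at 40.01, 33.7, 43.5, 40.4 and 38.7 in AdCKO (15.2 ± 3.33 to 39.2 ± 3.60, limma log2 fold change 1.33, SE 0.13, adjusted p = 7.16e-06). Mcm2, with the smallest p of the group, was at 8.69, 9.64, 11.5, 7.99 and 10.9 in Control and at 23.0, 20.3, 23.5, 25.4 and 22.7 in AdCKO (9.73 ± 1.45 to 23.0 ± 1.81, limma log2 fold change 1.17, SE 0.11, adjusted p = 3.96e-06). The 6 subunits rose by different folds, from 1.59 for Mcm4 to 2.65 for Mcm5, and the groups were apart for each of them.

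Of the loaders, Cdt1 rose 2.24-fold (8.24 ± 1.95 to 18.5 ± 1.99, limma adjusted p = 3.21e-05). Cdc6 was low, at 2.61 ± 0.289 and 3.34 ± 0.369, and its groups overlapped. It passed (limma log2 fold change 0.27, adjusted p = 0.00701) and lost the call without any one of 8 libraries, all but Control replicate 3 and AdCKO replicate 2, with an adjusted p of at most 0.0199. It was also lost with quantile normalization (0.766), with the replicate number as a block (0.0163) and without limma's intensity trend (0.0106).

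Of the 5 genes of the replication clamp and deoxynucleotide supply, 4 rose and Rrm1 was not called. Rrm2, the small subunit of ribonucleotide reductase, was at 6.95, 7.08, 10.2, 7.04 and 7.32 in Control and at 22.4, 21.6, 30.5, 22.0 and 20.3 in AdCKO (7.71 ± 1.37 to 23.4 ± 4.05, limma log2 fold change 1.48, SE 0.13, adjusted p = 2.92e-06). Its large subunit Rrm1 overlapped between groups, at 59.8 ± 6.37 and 72.6 ± 6.69 (limma log2 fold change 0.28, adjusted p = 0.019), and passed when Control replicate 1 was left out (0.33, adjusted p = 0.00618). Tk1, the cytosolic thymidine kinase, was at 12.5, 12.1, 11.9, 9.21 and 15.2 in Control and at 33.3, 27.3, 37.8, 36.2 and 36.0 in AdCKO (12.2 ± 2.13 to 34.1 ± 4.15, limma log2 fold change 1.42, SE 0.13, adjusted p = 3.90e-06).

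Pcna, the sliding clamp of the DNA polymerases, was the most abundant of these genes and rose 1.34-fold (130 ± 6.09 to 174 ± 13.6, limma log2 fold change 0.41, adjusted p = 2.02e-04). Tyms, which makes thymidylate, rose 1.46-fold (9.78 ± 0.926 to 14.2 ± 1.89, limma log2 fold change 0.49, adjusted p = 0.00174). Without AdCKO replicates 1, 2 and 4 the call was lost for Pcna (0.29, adjusted p = 0.0166), Tyms (0.52, 0.0101) and Mcm4 (0.63, 0.015). With quantile normalization it was lost for Tyms (0.11, adjusted p = 0.462) and Mcm4 (0.33, 0.0142). Across the 16 genes of S phase (licensing, clamp and deoxynucleotide supply, cyclin E and Cdk2), 12 were called higher and 0 lower over all genes by limma, and none was lower even at an unadjusted p under 0.05. Of all genes 24.7% were called higher. Quantile normalization left 9 of the 16 higher, where 18.7% of all genes were.

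Promoters of genes of S phase often hold E2F sites. The window from 250 bases before to 50 after the deposited transcript start, read from mm9, was searched on both strands for TTTCCCGC, TTTCGCGC, TTTGCCGC and TTTGGCGC. A match was found for 8 of the 16 genes of S phase (50%), for 1 of 17 genes of mitosis (5.88%), for 0 of 5 D cyclins and their kinases, and for 565 of all 15073 windows (3.75%). The 8 were Cdk2, Cdc6, Cdt1, Mcm3, Mcm4, Mcm5, Mcm6 and Mcm7. Cdk2 was not called, and Cdc6 overlapped between groups. The 200 bases upstream of Tk1 (chr11:117687329-117687528, minus strand), Rrm2 (chr12:25392919-25393118, plus strand) and Mcm6 (chr1:130256234-130256433, minus strand) are shown 5′ to 3′, the first pair for the smallest p in this class and Mcm6 as one of the pair of genes in this class with the most E2F matches, chosen after its values were seen. Capitals mark the E2F letters above and CCAAT, on either strand, and overlapping matches run together.
Tk1: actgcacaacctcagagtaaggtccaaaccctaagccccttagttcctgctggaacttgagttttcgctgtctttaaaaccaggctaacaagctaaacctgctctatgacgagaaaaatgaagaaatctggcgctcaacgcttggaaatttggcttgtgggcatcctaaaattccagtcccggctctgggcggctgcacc
Rrm2: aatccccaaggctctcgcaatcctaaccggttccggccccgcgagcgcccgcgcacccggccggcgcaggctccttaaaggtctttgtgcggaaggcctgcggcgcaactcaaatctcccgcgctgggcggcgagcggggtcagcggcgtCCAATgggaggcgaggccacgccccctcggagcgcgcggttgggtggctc
Mcm6: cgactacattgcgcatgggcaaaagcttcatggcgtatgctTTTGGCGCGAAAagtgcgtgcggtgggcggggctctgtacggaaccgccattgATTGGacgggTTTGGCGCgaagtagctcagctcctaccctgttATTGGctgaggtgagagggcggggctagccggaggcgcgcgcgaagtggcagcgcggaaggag
Mcm6 had 3 E2F matches, of which a pair on opposite strands overlaps, and 2 CCAAT matches upstream. The stretches of Rrm2 and Tk1 had no E2F match.

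Genes of G2 and mitosis were higher almost throughout. Of the 17 (cyclins A and B with Cdk1, mitotic kinases and checkpoint, centromere and kinesin genes, and the markers Mki67 and Top2a), 16 were called higher and 0 lower over all genes, and Cenpa was not called. None was lower at an unadjusted p under 0.05 in limma either. Of all genes 24.7% were called higher. Quantile normalization left 13 of the 17 higher, where 18.7% of all genes were. Ccna2, the A cyclin of S phase and G2, was at 7.33, 7.41, 9.69, 8.03 and 6.62 in Control and at 23.4, 22.6, 28.3, 24.1 and 29.3 in AdCKO. It rose 3.27-fold, from 7.82 ± 1.16 to 25.5 ± 3.02 (limma log2 fold change 1.59, SE 0.11, adjusted p = 6.23e-07). Cdk1, the kinase that starts mitosis, was at 2.87, 3.24, 3.44, 3.02 and 2.96 in Control and at 9.18, 8.32, 12.6, 10.7 and 9.87 in AdCKO. Its rise was 3.26-fold, from 3.10 ± 0.230 to 10.1 ± 1.62 (limma log2 fold change 1.43, SE 0.10, adjusted p = 3.98e-07). Of the B cyclins, Ccnb2 rose 2.21-fold (5.57 ± 0.801 to 12.3 ± 1.64, limma adjusted p = 1.51e-05). Ccnb1 rose 1.51-fold at a lower level (2.30 ± 0.145 to 3.47 ± 0.510, limma adjusted p = 4.54e-04), and its call was lost with quantile normalization (0.18, adjusted p = 0.0509).

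All 7 genes of mitotic kinases, checkpoint and exit were called higher over all genes, where 24.7% of all genes were. Birc5 encodes survivin, a subunit of the chromosomal passenger complex. Its values were 9.65, 10.1, 14.3, 12.0 and 9.26 in Control and 25.7, 26.8, 32.1, 27.9 and 32.9 in AdCKO (11.1 ± 2.10 to 29.1 ± 3.24, limma log2 fold change 1.33, SE 0.13, adjusted p = 4.97e-06). Aurkb, the kinase of that complex, was at 3.74, 4.22, 5.04, 3.94 and 3.83 in Control and at 10.2, 8.56, 11.4, 9.52 and 9.91 in AdCKO (log2 fold change 1.08, SE 0.09, limma adjusted p = 1.70e-06). The groups were apart for both.

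Plk1, a kinase of mitotic entry, rose 2.14-fold and Cdc20, which activates the anaphase-promoting complex, rose 2.17-fold. The spindle checkpoint genes Bub1b and Bub1 rose 2.17-fold and 1.54-fold, and Bub1 stayed near 2 in AdCKO (1.27 ± 0.0998 to 1.96 ± 0.268). Aurka, the kinase of the spindle poles, rose 1.33-fold (9.88 ± 1.10 to 13.1 ± 0.973, limma log2 fold change 0.38, adjusted p = 0.00429). This call depended on the processing. With quantile normalization the log2 fold change of Aurka was -0.01 (adjusted p = 0.95), and the call was lost with the replicate number as a block (0.0173) and without AdCKO replicates 1, 2 and 4 (0.0587). Leaving out any one of Control replicates 1, 2 and 4 or AdCKO replicates 2, 3 and 4 also ended it, with an adjusted p of at most 0.0123. Without AdCKO replicates 1, 2 and 4, Bub1 also lost its call (0.28, adjusted p = 0.0117).

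Among centromere proteins and mitotic kinesins, Kif11, the motor that pushes spindle poles apart, had the largest log2 fold change. It was at 2.28, 2.36, 3.81, 2.35 and 2.21 in Control and at 8.202, 6.27, 7.28, 8.61 and 6.75 in AdCKO (2.60 ± 0.678 to 7.42 ± 0.975, limma log2 fold change 1.24, SE 0.12, adjusted p = 5.19e-06). Cenpe, a kinetochore motor, rose 2.49-fold and Kif20a, a motor of cytokinesis, rose 1.89-fold. The Kif20a call was lost with quantile normalization (0.45, adjusted p = 0.016). Cenpa, the histone variant that marks centromeres, was at 38.8 ± 5.94 and 39.99 ± 3.78 with overlapping groups (limma log2 fold change 0.05, adjusted p = 0.718). It passed as higher only with equal totals (0.52, adjusted p = 9.92e-04).

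**Figure D3:**
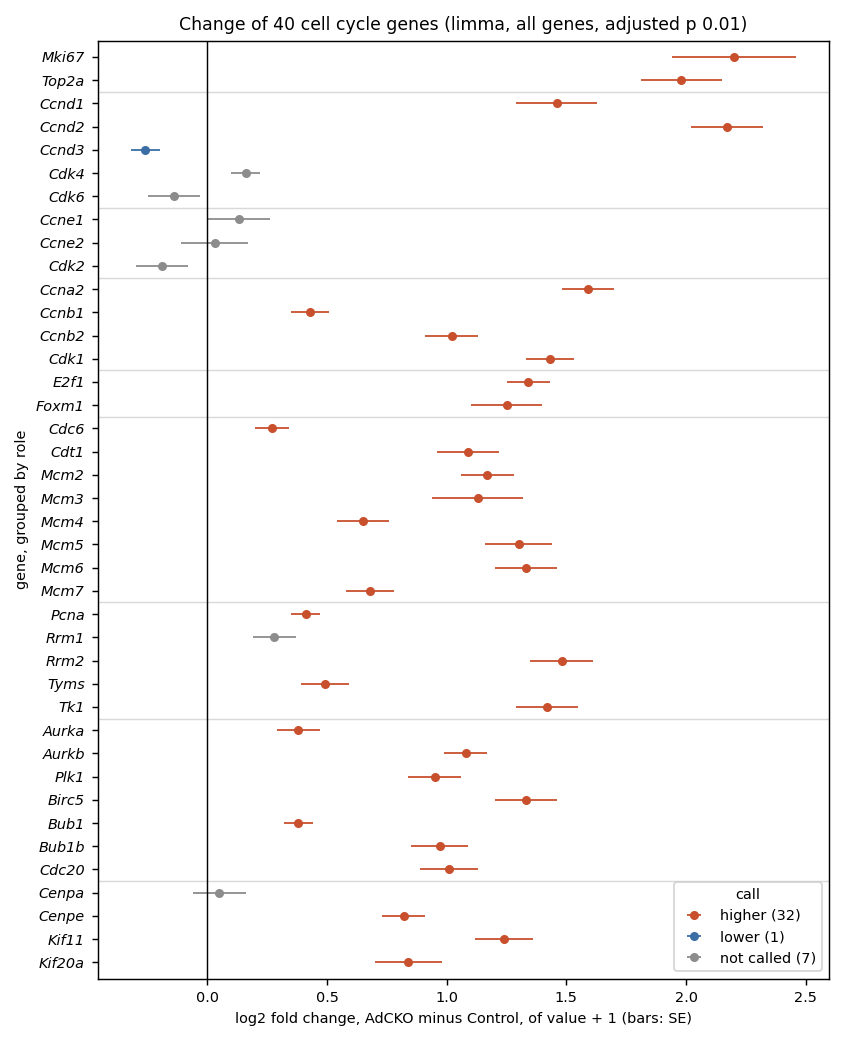
Log2 fold change of the 40 genes, AdCKO minus Control, of value + 1, with bars for the SE from limma over all genes, grouped by role. Points are red where called higher (32), blue where called lower (1, Ccnd3) and grey where not called (7), and the largest changes are those of Mki67 (2.20) and Ccnd2 (2.17).

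Promoters of genes of G2 and mitosis are known for the cell cycle genes homology region (CHR), bound by MuvB complexes, often next to CCAAT boxes bound by NF-Y. The same windows were searched on both strands for the CHR letters TTTGAA and TTCGAA and for CCAAT. A CHR match was found for 12 of the 17 genes of mitosis (70.6%) and for 13.8% of all windows, and a CCAAT match for 94.1% and 37.6%. Both together were found for 70.6% of the genes of mitosis, 12.5% of the genes of S phase and 5.78% of all windows. Cenpa, which was not called, had a CHR match, while Ccna2, Ccnb1, Cenpe, Birc5 and Kif20a had none and were called higher. The 200 bases upstream of Ccna2 (chr3:36470919-36471118, minus strand), Cdk1 (chr10:68815661-68815860, minus strand) and Top2a (chr11:98885504-98885703, minus strand) are shown, the first pair for the smallest p and Top2a for the most matches, chosen after its values were seen. Capitals mark E2F, CHR and CCAAT letters on either strand.
Ccna2: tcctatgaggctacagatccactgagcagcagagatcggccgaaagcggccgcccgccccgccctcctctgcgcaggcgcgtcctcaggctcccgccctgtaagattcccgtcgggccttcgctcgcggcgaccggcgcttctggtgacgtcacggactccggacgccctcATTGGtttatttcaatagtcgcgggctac
Cdk1: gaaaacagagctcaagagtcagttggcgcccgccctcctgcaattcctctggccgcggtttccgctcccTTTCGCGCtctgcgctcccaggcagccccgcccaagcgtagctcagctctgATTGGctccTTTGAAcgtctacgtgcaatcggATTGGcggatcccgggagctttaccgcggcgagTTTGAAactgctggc
Top2a: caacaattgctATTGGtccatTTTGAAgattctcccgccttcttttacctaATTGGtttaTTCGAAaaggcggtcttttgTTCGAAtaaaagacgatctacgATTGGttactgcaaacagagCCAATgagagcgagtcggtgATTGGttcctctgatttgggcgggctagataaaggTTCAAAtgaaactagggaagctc
Cdk1 had 1 E2F, 2 CHR and 2 CCAAT matches upstream, Top2a had 4 CHR and 5 CCAAT matches, and Ccna2 had 1 CCAAT match. Matches describe letters only and say nothing of binding in these samples, and a missing match says only that these letters are not in the window.

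Other genes of the cell cycle, 178 in 11 lists, divided by list. Over all genes 82 were called higher, 18 lower and 78 not, with a median log2 fold change of 0.29, where 24.7% of all genes were higher and 21.6% lower. Of the 118 with a mean of at least 10, 41 were higher and 21 lower, where 25.6% and 28% of all tested genes were. With equal totals the split of the latter test moved to 96 higher and 2 lower, and that of all tested genes to 61.4% higher and 9.57% lower, so that most of the lower calls named below are relative to the deposited scaling. With quantile normalization over all genes, 55 of the 178 were higher and 23 lower, where 18.7% and 26.9% of all genes were. Replication fork genes were then higher for 6 of 24, and kinetochore and spindle checkpoint genes for 8 of 23. Some of the higher calls thus depend on the scaling as well. The counts that follow are over all genes on the deposited scaling, and the adjusted p-values come from limma.

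Spindle and cytokinesis genes were called higher for 24 of 26, all but Kif18a and Ckap5. Prc1, which bundles spindle microtubules, rose 3.49-fold (4.54 ± 0.703 to 15.8 ± 2.38, adjusted p = 6.46e-07), Tpx2, an activator of Aurka, 3.33-fold (3.05 ± 0.630 to 10.2 ± 0.866, adjusted p = 4.87e-07), and Stmn1, which binds tubulin, 2.89-fold (18.5 ± 2.50 to 53.5 ± 4.17, adjusted p = 4.87e-07). In the kinetochore and spindle checkpoint list 14 of 23 were called higher and 0 lower, with Spc25 at 5.58 ± 0.695 and 11.8 ± 1.18 (adjusted p = 5.56e-06). Cenpf and Casc5 passed at levels below 2 in both groups.

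Replication fork genes were called higher for 14 of 24 and lower for 1, the polymerase subunit Pold2 (94.1 ± 6.58 to 67.2 ± 5.47, adjusted p = 1.74e-04). Uhrf1, which carries DNA methylation through replication, rose 2.77-fold (6.93 ± 2.30 to 19.2 ± 2.64, adjusted p = 5.36e-05), and the ligase gene Lig1 2.07-fold. Chaf1b, a histone chaperone subunit, rose 2.06-fold. Origin recognition and helicase activation genes had 2 higher, Mcm10 and Dbf4, 4 lower (Orc3, Mcm8, Gins4 and Gmnn) and 10 not called. The count lower is near the share of all genes, 21.6%, and the count higher is below theirs, 24.7%. Under equal totals 11 of the 16 were higher and 0 lower, where 67% of all genes were higher. Gmnn encodes geminin, the inhibitor of Cdt1, and was at 113 ± 12.2 in Control and 70.0 ± 9.02 in AdCKO (log2 fold change -0.68, adjusted p = 1.54e-04), opposite in direction to Cdt1. With equal totals its log2 fold change was -0.21.

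Among other genes of deoxynucleotide metabolism, Dctd, Dck and Samhd1 rose, and Rrm2b, the ribonucleotide reductase subunit used outside S phase, fell from 58.6 ± 5.72 to 36.3 ± 2.36 (log2 fold change -0.67, adjusted p = 3.55e-05), opposite to Rrm2. Of condensin, cohesin and securin genes, 6 of 16 were higher, such as the separase gene Espl1 and Smc2, and 3 were lower (Ncapd3, Ncaph2 and the securin gene Pttg1). In the list of CDC25, WEE1 and checkpoint kinases, 6 of 13 were higher, with Pkmyt1 at 13.2 ± 3.02 and 29.3 ± 3.44 (adjusted p = 4.14e-05), Brca1 and Clspn among them. Cdc25a, a phosphatase that activates Cdk2, was lower (35.9 ± 5.35 to 22.0 ± 3.46, adjusted p = 8.94e-04).

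Of RB, E2F and MuvB genes, 4 of 17 were higher and 3 lower, close to the shares of all genes, 24.7% and 21.6%. The pocket protein genes differed in sign: Rbl1 (p107) rose from 5.99 ± 1.23 to 12.2 ± 2.04 (log2 fold change 0.92, adjusted p = 1.80e-04), and Rbl2 (p130), typical of resting cells, fell from 156 ± 13.9 to 77.9 ± 5.96 (-0.99, adjusted p = 9.05e-07). Rbl2 was also lower with equal totals (-0.52), although an exon of it overlaps Aktip on the opposite strand. E2f2, E2f3 and the repressor E2f8 rose as well, and E2f5 and the E2F partner gene Tfdp2 fell. The calls of E2f2 and E2f3 were lost with quantile normalization (limma adjusted p = 0.169 and 0.204). APC/C and SCF genes were mostly not called, with 3 of 21 higher (Cks1b, Ube2c and Skp2) and 4 lower (Anapc13, Cdc26, Cul1 and Skp1a), neither share above that of all genes. Anapc13 was the only other gene of the 178 that was called lower with equal totals (-0.57).

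Of 7 inhibitors of cyclin-dependent kinases, 2 were called higher and 0 lower, with a median log2 fold change of 0.05. Of 8 growth arrest and early growth genes, 4 were higher and 1 lower, where 24.7% and 21.6% of all genes were. The latter list held the largest rises among the 178, those of Gadd45a and Myc. Besides Cdkn1a, Cdkn2b (p15) rose 1.93-fold (11.8 ± 1.22 to 22.7 ± 5.91, adjusted p = 7.31e-04), while Cdkn2c (p18) was at 253 ± 32.1 and 187 ± 34.1 with overlapping groups (adjusted p = 0.0111, not called). Cdkn1b (p27) was at 115 ± 6.85 and 125 ± 10.3 (adjusted p = 0.203), and Cdkn1c, Cdkn2a and Cdkn2d were not called either. Gadd45a, induced by DNA damage and other stress, rose 7.96-fold (43.3 ± 8.14 to 345 ± 80.0, adjusted p = 1.97e-07), Gadd45b rose 3.71-fold, and Ccng1 was lower (log2 fold change -0.29, adjusted p = 0.00756). Myc, a transcription factor of cell growth, rose 5.83-fold (26.3 ± 6.44 to 153 ± 18.9, adjusted p = 1.60e-07).

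**Figure D4:**
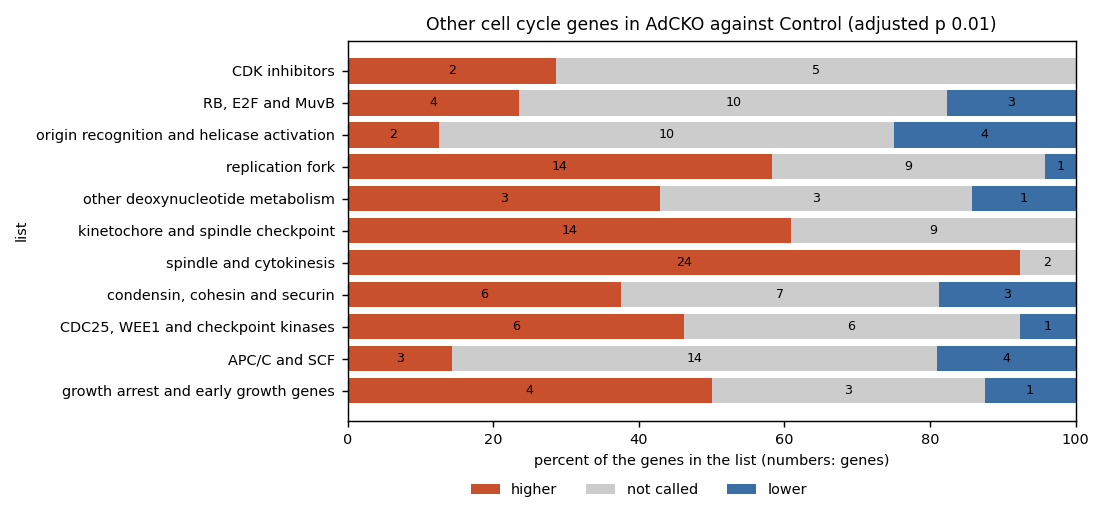
Percent of the genes in each of 11 other cell cycle lists that were called higher (red), not called (grey) or called lower (blue) in AdCKO over all genes at an adjusted p of 0.01, with the number of genes printed in each bar. Spindle and cytokinesis stand at 24 of 26 higher, where 24.7% of all genes were. The lists APC/C and SCF and origin recognition hold 4 lower genes each, near the 21.6% of all genes called lower.

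Libraries of a group differed in the same direction for many of the 40 genes. Control replicate 3 was the highest Control library for 26 of the 40, and its median over the 40 genes was 9.92, against 7.17 to 7.77 in the other Control libraries. In AdCKO these medians ran from 16.4 to 19.7, with replicate 2 the lowest library for 22 genes. Without Control replicate 3, 32 of the 40 were still called higher over all genes, where 23.5% of all genes were.

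Markers of other cell types moved in different directions. Over all genes, of which 24.7% were higher and 21.6% lower, 11 of 13 macrophage markers were called higher in AdCKO by limma, and their sum rose from between 246 and 545 in Control to between 4125 and 7314 in AdCKO, with Control replicate 3 the highest Control library. Of 10 markers of fibroblasts and adipocyte progenitors, 8 were called higher, and their sum went from between 1362 and 1751 to between 4584 and 6838, again with Control replicate 3 the highest in its group. Adipocyte markers were lower for 6 of 8, but for 2 with equal totals and 1 with quantile normalization, where their median log2 fold change went from -0.57 to -0.09 and 0.09. Brown adipocyte markers were lower for 5 of 7, and for 4 under either of these scalings. With equal totals 1 marker of each list was called higher by limma, Lep (2.18, adjusted p = 0.00895) and the brown marker Dio2 (1.38, 9.29e-04). Neither was called on the deposited scaling, where their log2 fold changes were 1.70 and 0.90. The summed endothelial markers overlapped, at 1739 to 2196 and 1789 to 2499, with 2 of 8 called higher (Pecam1 and Cldn5) and 1 lower (Flt1).

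Summed T cell markers lay between 43.6 and 87.0 in Control and between 61.8 and 270 in AdCKO, with 1 of 8 called higher over all genes (Cd4) and 0 with quantile normalization. Summed B cell markers were at 17.4 to 23.95 in AdCKO apart from replicate 1 at 112, and at 18.4 to 21.0 in Control, with 0 of 5 called by limma at an adjusted p of 0.01 and 0 with an unadjusted p under 0.05. No gene was at 0 in any library, so a value above 0 does not by itself show that a marker was expressed. Which cells carried the cell cycle RNA was not tested. AdCKO replicate 1 had the highest lymphocyte sum, and Control replicate 3 the highest Control macrophage sum. Without these libraries, 32 of the 40 were called higher over all genes, where 22% of all genes were. Without the muscle-rich AdCKO replicates 1, 2 and 4, which leaves 2 AdCKO mice, 27 of the 40 were, where 16.9% of all genes were.

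**Figure D5:**
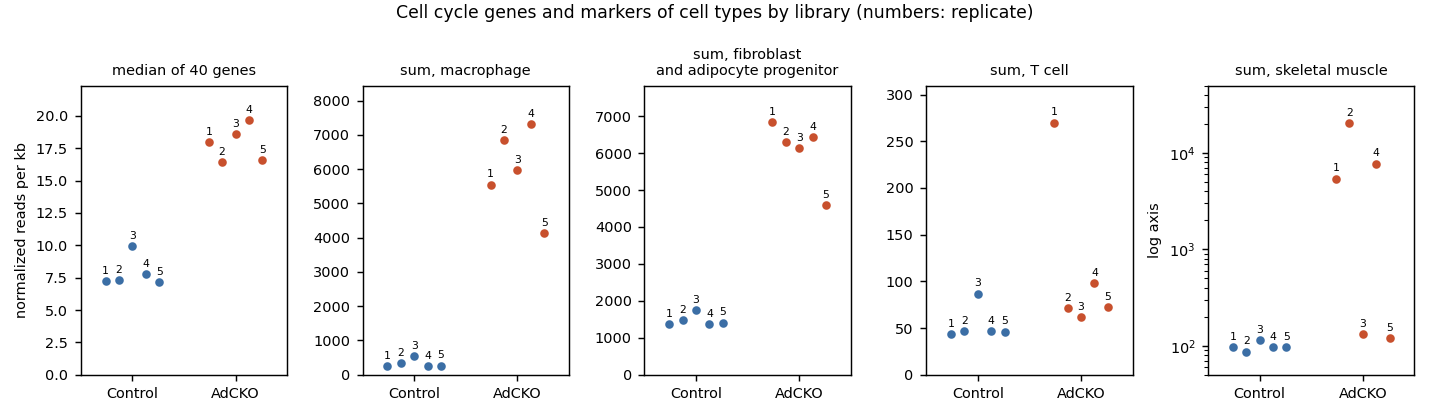
Normalized reads per kb in each library, numbered by replicate: the median of the 40 cell cycle genes, and the summed markers of macrophages, fibroblasts and adipocyte progenitors, T cells and skeletal muscle (log axis). Control replicate 3 is the highest Control library in all 5 panels, and AdCKO replicates 1, 2 and 4 hold the muscle RNA.

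Exons of 11 of the 40 genes overlap an exon of another annotated protein-coding gene, on the opposite strand for 10 of them, and the sources do not state that strand was used in counting. These are Ccnd1, Ccnd3, Cdk6, Ccne2, Ccna2, Foxm1, Mcm7, Tyms, Tk1, Cdc20 and Kif20a, whose values may hold reads of the neighbour. Of the 29 genes without such an overlap, 24 were called higher over all genes.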

How the data were processed

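RNA was measured by sequencing in 10 iBAT libraries, 5 per group, with groups and replicate numbers taken from the labels. Reads were aligned with STAR to the mm9 build, counted over exons by iRNA-seq and normalized in DESeq2 by the authors. The authors deposited a signal, the normalized reads divided by the counted exon length in kb, for 1 RefSeq transcript per gene. Tool versions are not given in the sources used here. The authors' deposited fold changes and adjusted p-values were not used, nor were their lists of called genes. Of the low values, 9.96% lay within 0.05 of a whole read, against 10% by chance, so counts were not recovered, and DESeq2, which the paper used, was not run. Precision is the spread between the deposited values of the mice, which for genes of few reads may be smaller than the true spread between mice.

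Values were tested as log2(value + 1) with limma 3.58.1 in R 4.3.3 (intensity trend, two-sided, Benjamini-Hochberg over all tested genes, threshold 0.01), once for genes with a mean of at least 10 in either group and once for all genes. The p and SE given for single genes come from the latter, since 15 of the 40 enter the former through AdCKO alone. The test was checked on simulated data. It recovered 92 of 104 genes changed by a log2 of 1 and 95 of 96 changed by 2, with 1 false call. The changed genes were drawn only from those with a Control level above about 10, and the minimum of 10 was kept. The simulation therefore does not check the test of all genes at lower levels, where 23 of the 32 called higher lay in Control. The simulation held no general shift of library totals between groups, so it does not bear on the scaling. Exact two-sided permutation tests of single genes, whose smallest p is 0.0079, gave that p for each of the 32 of the 40 genes without overlap.

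The 40 genes and all lists were chosen with earlier results of these data known. Values per library are given for Mki67, Top2a, Ccnd1, Ccnd2, Ccnd3, Cdk4 and Cdkn1a and for the largest change and smallest p of each role group, and from other lists up to 3 genes per direction with the smallest p. Other genes named were chosen after their values were seen. Promoter windows were read from the mm9 genome around the deposited transcript starts, and 21 of the 40 are also in the RefSeq promoter table. Protein sequences were not used here. Alternatives were pseudocounts of 0.1 and 10, other filters, equal totals, quantile normalization, limma without the trend or with a robust trend, a replicate block, each library left out, and an adjusted p of 0.05. Leaving out muscle-rich or immune-rich libraries, and each alternative without a filter, were added after seeing the data. Figures were drawn with matplotlib 3.10.9.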

Additional observations from a re-analysis of the deposited data

Results flagged for a closer look

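Single libraries stood apart from the other 4 of their group, with a gap above Dixon's 95% critical value, in 6 of 80 groups of the 40 cell cycle genes, where chance gives about 1 in 20. In 4 of the 6, Control replicate 3 was the highest Control library, with Mki67 at 8.14, Cdt1 at 11.7, Rrm2 at 10.2 and Kif11 at 3.81. In AdCKO, replicate 3 was the highest for Rrm2 at 30.5, and replicate 2 was the lowest for Ccnb2 at 9.46. The AdCKO values of Mki67, Cdt1, Rrm2 and Kif11 all lay above Control replicate 3. Among summed cell type markers, T cell markers were highest in Control replicate 3 at 87.0 and in AdCKO replicate 1 at 270, and B cell markers in AdCKO replicate 1 at 112. The cause of these gaps was not tested.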

How the results depend on the processing

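Among genes with a mean of at least 10, the count of the 40 called higher, 24, lay between 20 (quantile normalization, or a minimum of 10 for the mean of all samples) and 32 (no filter, or equal totals) over all alternatives, and between 22 and 24 when each library was left out. Over all genes it was 32, between 27 and 38 over the alternatives (38 with equal totals, where 67% of all genes were called higher) and between 30 and 32 with each library left out. The count called lower, 1, was 0 with equal totals, with quantile normalization, with the replicate block, without the muscle-rich libraries and without the immune-rich libraries, and between 0 and 1 with each library left out. Over all genes it was 0 with equal totals, with the block, and without the muscle-rich or the immune-rich libraries, and with quantile normalization the 1 gene called lower was Cdk6 (-0.49, adjusted p = 0.00407 in limma). In the other lists the count higher, 41, was 82 without a filter and 96 with equal totals, and the count lower, 21, was 2 with equal totals. With each library left out these counts lay between 37 and 41 and between 16 and 21. Over all genes, quantile normalization left 55 of the 178 higher and 23 lower, where 18.7% and 26.9% of all genes were. Equal totals reversed Ccnd3 (0.22), and quantile normalization brought Aurka to -0.01, with no call (adjusted p = 0.95 in limma). The cause of these moves was not tested, apart from the shift of all genes that equal totals bring, from a median of 0.03 to 0.43, where the median of the 40 genes went from 0.99 to 1.41, and to 0.63 with quantile normalization, where all genes were at -0.04.

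The replicate numbers did not pair the samples: deviations of libraries with the same number correlated between -0.278 and 0.1, and 0 of 5 matched their own number best. With the replicate block, 23 of the 40 were called higher and 0 lower among genes with a mean of at least 10, and 30 higher over all genes. In the other lists 36 were higher and 16 lower. The block called 23.1% of all tested genes with a mean of at least 10 higher and 25.2% lower, and 21.6% higher without a filter. The depth of the libraries is unknown, so no limit from counting is given, and genes below 10 in both groups rest on few reads.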
